A study of Mus musculus with 8 samples.

Results

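The comparison described here is the net change in RNA over the 3 h after mouse pluripotent stem cells were released from a mitotic block: late G1 libraries against mitotic libraries. Its members are the 4 libraries whose titles and cell phase labels place them in those groups, of 8 in the series, and it was measured across the 19101 genes, of 54838 in the count table, that passed a filter on low counts. The cells were induced pluripotent stem cells (iPSC, somatic cells reprogrammed to a state like that of embryonic stem cells, and called ESC in the sample titles). They came from 2 independent male clones kept on a layer of irradiated feeders, in medium with serum, LIF and the MEK and GSK3 inhibitors known as 2i. The labels do not say which library came from which clone. Every group carried this culture history. The mitotic group (2 libraries, 0 h) had been moved to gelatin the day before, held in 200 ng/ml nocodazole for 6 h, shaken off the dish and collected at once. The late G1 group (2 libraries) came from the same kind of shake-off, was washed free of nocodazole, plated on gelatin and collected after 3 h. An early G1 group (2 libraries, 1 h after washing) and an asynchronous group that had no block (2 libraries) serve here as further measurements.

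Nocodazole depolymerises microtubules, which keeps the spindle checkpoint on and holds cells in mitosis, where chromosomes are condensed and most transcription by RNA polymerase II is low. When the drug is washed away the cells divide, rebuild their nuclei and restart transcription. Pluripotent stem cells have a short G1 in which the transcription factor network that holds their identity must be reinstated before DNA replication begins.

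The 4 libraries held between 21182167 and 24476915 counted reads each. Values below are CPM, a gene's reads divided by the library total and scaled by the trimmed mean of M-values (TMM), so they give a gene's share of the library and not RNA per cell. In such bulk samples fewer cells of a type and less RNA per cell cannot be told apart. The drug, the time since mitosis and the new plating changed together between the groups and cannot be told apart either. The biological coefficient of variation, the spread between replicates beyond counting noise, was 0.160 in the mitotic pair and 0.0408 in the late G1 pair, against 0.260 in the asynchronous pair. Pou5f1, which defines pluripotent cells, was between 1848 and 2121 CPM in the 4 libraries. Markers of macrophages, which the labels do not mention, stood apart: Lyz2 (lysozyme of myeloid cells) was at 28.7 and 30.8 CPM in the mitotic libraries and at 0 reads in both late G1 libraries, a level at least 210-fold lower when 3 counts per library are taken as the floor.

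By late G1, 1038 genes were higher and 772 lower than in mitosis. Together they are 1810 genes or 9.48% of those tested, with 5.43% higher and 4.04% lower (edgeR quasi-likelihood test with Benjamini-Hochberg adjustment, adjusted p under 0.05, the test behind every adjusted p below). Among them, 711 genes were at least 2-fold higher, 3.72% of all tested, and 352 at least 2-fold lower, 1.84%. The median log2 fold change was 1.30 over the called rises and -0.94 over the called falls, while over all genes tested it was -0.01. The values of the 2 late G1 libraries lay wholly above those of the 2 mitotic libraries for 6114 genes (32.0%) and wholly below for 6178 (32.3%), so a lack of overlap was common.

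The number called varied widely with the libraries in the fit, and the cause was not tested. It was 5480 (30.0%) when the asynchronous libraries were left out of the fit, with 15.6% higher and 14.4% lower, and it was 73 without late G1 library 1, 104 without late G1 library 2, 166 without mitotic library 1, 436 without mitotic library 2, 660 without early G1 library 1 and 666 without early G1 library 2. Without asynchronous library 1 or 2 it was 5479 or 5546. No called gene that was tested changed direction under any of these settings. Of the 133 called genes that are named by rule below, 27 stayed called under every setting tried: Fbxo5, Cry2, Slfn9, Fam43a, Nodal, Wee1, Mir17hg, Cdk1, Egr1, Tef, Ddit4l, Btg1, Zfp715, Snhg1, Nr1d1, Ccne2, Pmaip1, Plk2, Snhg12 and Top2a among the rises, and Neat1, Klf2, Meg3, Arhgef39, Lyz2, C1qc and C1qb among the falls. Of the same 133, 105 lost the call without late G1 library 1, 99 without late G1 library 2, 88 without mitotic library 1 and 67 without mitotic library 2. In every gene list below with at least 5 calls in a direction, that count also fell by more than 1.5 times when late G1 library 2 or mitotic library 1 was left out, and the text gives it without late G1 library 1 or for the library named.

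**Figure D1:**
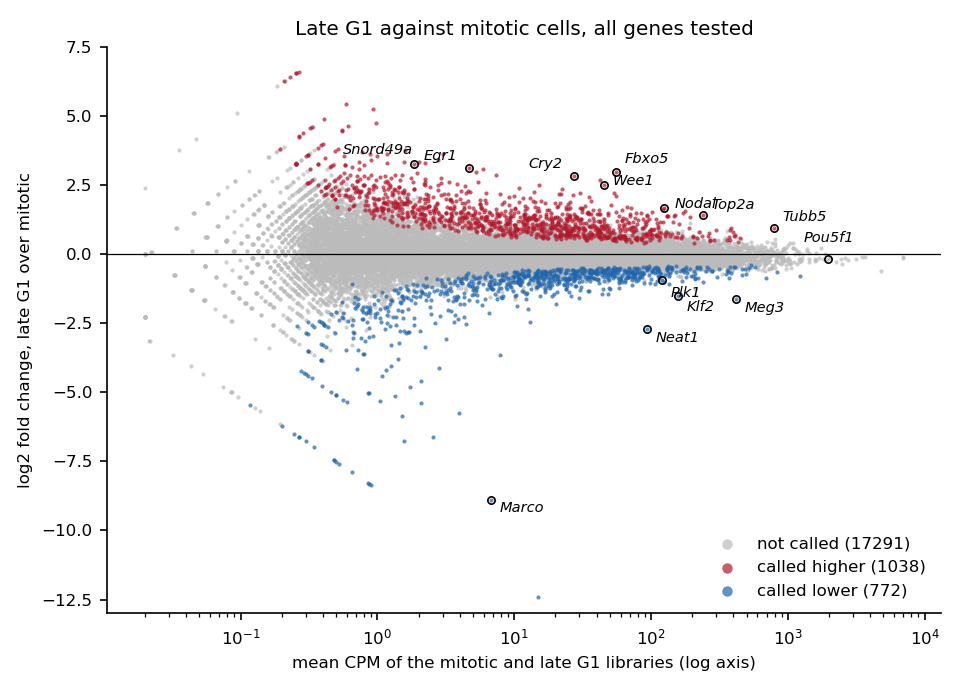
Each point is 1 of 19101 genes, with the mean CPM of the mitotic and late G1 libraries on the horizontal log axis and the log2 fold change of late G1 over mitotic cells on the vertical axis. Red points mark the 1038 genes called higher, blue points the 772 called lower, and ringed genes are named in the text.

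Among called genes with a mean log2 CPM of at least 2 and groups that do not overlap, the 12 largest rises included regulators of the cell cycle and of histone and clock genes. Fbxo5 (Emi1, an inhibitor of the anaphase-promoting complex, at chr10:5799160-5805600 on the minus strand of mm10) was at 12.3 and 12.7 CPM in the mitotic libraries and at 97.8 and 100.3 CPM in the late G1 libraries. Both late G1 values were far above both mitotic values, a log2 difference of 2.99 ± 0.16 (SE, adjusted p = 0.00045). Wee1, the kinase that holds CDK1 inactive, rose from 14.7 and 12.4 CPM to 77.8 and 76.7 CPM, by 2.51 ± 0.18 on the log2 scale (adjusted p = 0.00114). Cry2, a repressor of the circadian clock, rose from 7.71 and 5.96 CPM to 49.4 and 47.1 CPM, by 2.82 ± 0.17 (adjusted p = 0.000595).

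Npat, the coactivator of histone gene transcription, rose from 21.6 and 20.3 CPM to 89.6 and 91.4 CPM (log2 difference 2.11 ± 0.29, adjusted p = 0.00713). Slfn9, a member of the Schlafen family, rose from 12.2 and 10.4 CPM to 74.7 and 72.3 CPM. The remaining members of the 12 largest rises were Rtl10, Zfp715, Ccne2, Mir17hg, Spry4, Fam43a and Tchh, with log2 differences between 2.09 and 2.87. In each of these 12 genes the early G1 libraries, at 1 h, already lay above the mitotic libraries. Fbxo5, for example, was at 90.6 and 87.8 CPM at 1 h.

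By the same rule the largest fall was that of Neat1, the long noncoding RNA that scaffolds nuclear paraspeckles (chr19:5824708-5845478, minus strand). It stood at 173 and 151 CPM in mitosis, 37.8 and 39.3 CPM at 1 h, and 24.7 and 24.4 CPM at 3 h, 6.61-fold below mitosis (log2 difference -2.72 ± 0.13, adjusted p = 0.000286). Meg3, a maternally expressed noncoding RNA of the imprinted Dlk1-Dio3 region, fell from 676 and 593 CPM to 206 and 202 CPM (-1.64 ± 0.15, adjusted p = 0.00211). Rtl1, a protein-coding gene of that same region, fell from 38.4 and 25.1 CPM to 8.98 and 9.01 CPM, and Nespas, an antisense RNA of the imprinted Gnas region, from 18.1 and 14.9 CPM to 4.56 and 4.36 CPM. Because the strand setting used for counting is not stated, the values of Rtl1, Nespas and other genes with an antisense partner are uncertain.

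The other large falls were those of Gpnmb, Adamtsl5, Zscan4d, Chit1, Apbb2, Zbtb7c, Arhgef39 and Kcp. Gpnmb and Chit1 are known to be high in macrophages, and their falls went with those of the macrophage markers described below. Gpnmb went from 18.3 and 26.2 CPM to 2.60 and 5.44 CPM, and Chit1 from 8.43 and 5.70 CPM to 2.65 and 1.88 CPM. The part of macrophage RNA in these falls was not tested.

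**Figure D2:**
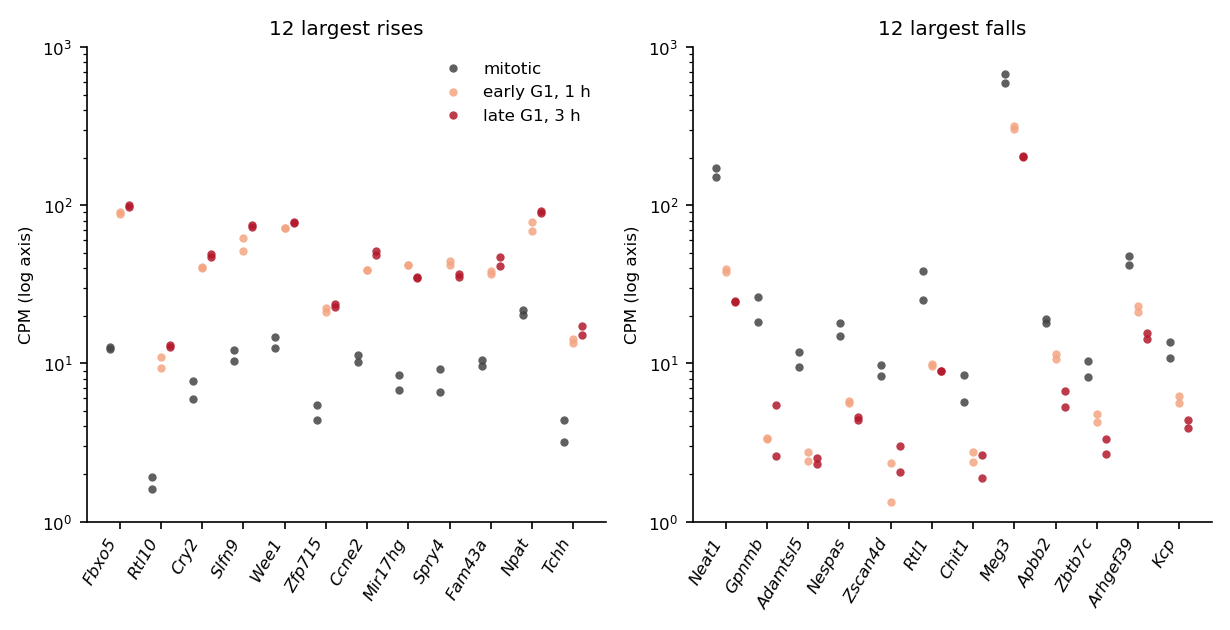
Levels of the 12 largest rises and 12 largest falls, as CPM on a log axis, in the 2 mitotic (grey), 2 early G1 (orange) and 2 late G1 (red) libraries, 1 point per library. Mitotic and late G1 points do not overlap for any of these genes, and the early G1 points lie on the late G1 side of the mitotic points in each.

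Genes of the mitotic machinery moved in both directions. In a list of 30 mitotic kinases, cyclins and their regulators, 5 were called higher (Fbxo5, Wee1, Cdk1, Aurkb and Pttg1) and 4 lower (Plk1, Aurka, Tpx2 and Cdc25c), with a median log2 change of -0.04. Cdk1, the kinase that drives entry into mitosis, rose from 51.4 and 52.2 CPM to 132 and 140 CPM (1.39 ± 0.11, adjusted p = 0.00208), having been at 185 and 175 CPM at 1 h. Plk1, the polo-like kinase needed for spindle assembly, was at 163 and 154 CPM in mitosis, 135 and 129 CPM at 1 h, and 82.5 and 81.5 CPM at 3 h (-0.95 ± 0.12, adjusted p = 0.00434). Aurka, the spindle pole kinase, went the same way, from 273 and 264 CPM through 216 and 213 CPM to 146 and 151 CPM (-0.85 ± 0.13, adjusted p = 0.00972). Aurkb, the kinase of the chromosomal passenger complex, differed in direction, with 23.7 and 22.7 CPM in mitosis and 47.3 and 47.7 CPM in late G1 (1.03 ± 0.15, adjusted p = 0.00787). Ccnb1, the mitotic cyclin, was at 83.5 and 84.8 CPM in mitosis and 93.6 and 100.8 CPM in late G1 and did not pass the test (adjusted p = 0.266). Cdc20, which activates the anaphase-promoting complex, was at 632 and 574 CPM against 431 and 416 CPM (-0.51 ± 0.16, adjusted p = 0.0851); it did pass without the asynchronous libraries.

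Among 32 genes of the kinetochore, centromere and spindle motors, 6 fell (Kif2c, Cenpe, Ndc80, Nuf2, Cenpa and Kif23) and none was called higher, with a median of -0.34. Kif2c, the kinesin that removes tubulin from microtubule ends, fell from 249 and 211 CPM to 129 and 128 CPM (-0.84 ± 0.12, adjusted p = 0.00869). Cenpe, the kinetochore motor, fell from 155 and 135 CPM to 79.6 and 86.3 CPM. Of 22 genes of cytokinesis and nuclear reassembly, Racgap1, a subunit of the centralspindlin complex, was alone in being called, falling from 255 and 250 CPM to 180 and 184 CPM. In the list of 26 cohesin, condensin and chromosome architecture genes, Top2a (topoisomerase II alpha) rose from 140 and 121 CPM to 341 and 357 CPM (1.42 ± 0.15, adjusted p = 0.00292), Ncapg2 and Pttg1 (securin) rose, and Smc4 and Cdca5 (sororin) fell. Without the asynchronous libraries 17 kinetochore genes were called lower and 1 higher, and 10 of the mitotic regulators were called higher and 9 lower. Over all genes that fit called 14.4% lower and 15.6% higher, against 4.04% and 5.43% in the fit of all 8 libraries. The same shares apply to each list count from these 2 fits below. With late G1 library 1 left out, none of the kinetochore genes was called, and 3 of the mitotic regulators were called higher and none lower.

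Promoters of 4 of these cell cycle genes are shown because they carry motifs searched for in the promoters of called genes. Each runs from 250 bases before to 50 bases after the gene's start, from RefSeq on GRCm38.p6, the build also called mm10. Capitals mark the CHR element (TTTGAA, or TTCAAA on the other strand), the CCAAT box (CCAAT or ATTGG) and the E2F core (GCGGGAA or TTCCCGC). They are from Fbxo5 (chr10:5805416-5805715, minus strand), Dtl (chr1:191575495-191575794, minus strand), Plk1 (chr7:122159185-122159484, plus strand) and Aurka (chr2:172370521-172370820, minus strand).
Fbxo5: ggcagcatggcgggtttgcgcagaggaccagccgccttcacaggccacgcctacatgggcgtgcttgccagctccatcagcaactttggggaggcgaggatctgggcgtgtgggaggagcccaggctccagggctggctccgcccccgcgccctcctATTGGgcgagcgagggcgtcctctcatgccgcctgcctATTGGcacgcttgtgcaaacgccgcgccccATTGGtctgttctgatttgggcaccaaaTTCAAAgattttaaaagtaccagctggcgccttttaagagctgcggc
Dtl: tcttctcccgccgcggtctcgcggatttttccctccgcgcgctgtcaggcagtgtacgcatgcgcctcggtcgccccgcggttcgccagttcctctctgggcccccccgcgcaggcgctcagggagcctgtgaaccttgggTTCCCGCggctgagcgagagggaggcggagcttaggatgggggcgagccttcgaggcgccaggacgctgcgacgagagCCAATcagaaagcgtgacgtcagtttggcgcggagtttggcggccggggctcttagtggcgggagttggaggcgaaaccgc
Plk1: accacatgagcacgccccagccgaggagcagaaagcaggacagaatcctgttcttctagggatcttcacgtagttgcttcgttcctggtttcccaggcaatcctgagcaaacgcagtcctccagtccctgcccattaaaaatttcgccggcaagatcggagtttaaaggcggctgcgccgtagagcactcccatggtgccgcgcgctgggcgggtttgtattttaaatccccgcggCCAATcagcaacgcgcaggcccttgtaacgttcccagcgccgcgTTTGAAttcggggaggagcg
Aurka: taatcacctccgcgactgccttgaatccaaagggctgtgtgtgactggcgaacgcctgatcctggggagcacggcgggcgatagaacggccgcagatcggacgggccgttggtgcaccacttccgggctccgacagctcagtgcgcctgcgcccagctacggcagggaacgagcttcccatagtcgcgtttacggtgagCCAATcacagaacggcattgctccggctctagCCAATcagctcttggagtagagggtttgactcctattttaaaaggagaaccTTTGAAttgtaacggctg
Fbxo5, which rose, holds 3 CCAAT boxes and a CHR element, while Plk1 and Aurka, which fell, hold a CHR element with 1 and 2 CCAAT boxes, and Dtl holds an E2F core and a CCAAT box. The same letters thus stand in promoters of a mitotic regulator that rose and of those that fell. Over protein-coding genes with a single RefSeq promoter, the E2F core was in 12.6% of 469 promoters of genes called higher and 6.70% of 403 called lower. It was in 8.48% of the 9182 such genes tested. Among genes of any type with a single RefSeq promoter, it was in 4.597% of 22862 promoters of this length. Genes with several promoters were left out of every set. The CHR element was in 13.4% of the promoters of rising genes, 11.2% of those of falling genes and 11.9% of those tested, and in 18.5% of the 22862. The CCAAT box was in 45.8%, 41.9%, 39.4% and 38.2% of the same sets. These matches describe letters in the windows and do not show binding.

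Genes of G1 progression and DNA replication were called in 1 direction. Of 20 G1 cyclins, CDKs and CDK inhibitors, 5 rose (Ccne2, Cdkn1a, Ccnd2, Cdkn2c and Cdk2), none was called lower and the median was 0.41. Ccne2, a cyclin E that activates CDK2 at the start of S phase, rose from 11.3 and 10.2 CPM to 48.2 and 51.1 CPM (2.21 ± 0.22, adjusted p = 0.00259). Its paralog Ccne1 was already at 257 and 281 CPM in mitosis and at 344 and 352 CPM in late G1 (0.37 ± 0.16, adjusted p = 0.191). Cdkn1a (p21), an inhibitor of CDKs, rose from 47.96 and 70.02 CPM to 188 and 182 CPM (1.65 ± 0.24, adjusted p = 0.00864). Ccnd2 rose from 9.57 and 14.2 CPM to 25.2 and 23.9 CPM, whereas Ccnd1, the cyclin D1 gene, was at 127 and 125 CPM against 137 and 141 CPM and was not called (adjusted p = 0.571). The one call left in this list without late G1 library 1 was Ccne2, and without the asynchronous libraries 11 were called higher and 3 lower.

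Of 52 E2F factors and S-phase targets, 11 rose and none was called lower, with a median of 0.21. They included 4 E2F genes: E2f2 went from 14.7 and 14.3 CPM to 30.6 and 27.5 CPM, E2f7 from 25.2 and 19.9 CPM to 64.0 and 59.2 CPM, E2f8 from 44.5 and 35.8 CPM to 116 and 112 CPM, and E2f6 from 27.0 and 31.4 CPM to 54.0 and 52.7 CPM. E2f7 and E2f8 are known as repressors of E2F targets. Dtl, the substrate receptor that marks CDT1 for destruction, rose from 89.4 and 87.7 CPM to 196 and 201 CPM (1.17 ± 0.13, adjusted p = 0.00368). Cdc6, which loads the MCM helicase, rose from 81.0 and 70.8 CPM to 145 and 150 CPM, and Mcm4, a helicase subunit, from 298 and 284 CPM to 501 and 513 CPM. The other called members were Rad51ap1, Slbp, Rrm2 and Rfc3. Pcna, the replication clamp, was at 174 and 147 CPM against 206 and 221 CPM and did not pass (adjusted p = 0.141). Without the asynchronous libraries 22 members were called higher and 4 lower, and without late G1 library 1 none was called.

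Replication-dependent histone genes were mostly below the filter: 28 of the 67 in the table were tested, and 5 rose. Hist1h1c, a linker histone gene, rose from 13.0 and 13.0 CPM to 33.2 and 37.7 CPM (1.45 ± 0.16, adjusted p = 0.00362). A single member was called without late G1 library 1, and none without late G1 library 2. Most histone mRNA of this class lacks a poly(A) tail, and the labels name a kit for mRNA.

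Some immediate early and ERK feedback genes were called higher, and most members of both lists were not called. Of 35 immediate early genes, 11 rose (Egr1, Btg1, Fos, Hes1, Ier5, Btg2, Junb, Egr3, Fosl1, Fosb and Id3) and 2 fell (Rhob and Gadd45b), with a median of 0.34. Egr1, a transcription factor induced by ERK signalling, was at 1.10 and 0.820 CPM in mitosis, 12.9 and 11.5 CPM at 1 h, and 8.48 and 8.30 CPM at 3 h (3.12 ± 0.26, adjusted p = 0.00208). Fos, a subunit of AP-1, was at 4.47 and 4.92 CPM, then 9.92 and 9.74 CPM, then 14.2 and 14.5 CPM (1.61 ± 0.18, adjusted p = 0.00368). Of 20 ERK feedback and FGF response genes, 5 rose (Egr1, Spry4, Spry2, Dusp6 and Fosl1), none was called lower and the median was 0.51. Spry4, a feedback inhibitor of receptor tyrosine kinase signalling, rose from 9.27 and 6.56 CPM to 36.8 and 35.2 CPM (2.18 ± 0.26, adjusted p = 0.00426). Dusp6, a phosphatase of ERK, rose from 10.9 and 8.33 CPM to 30.4 and 31.9 CPM (1.70 ± 0.21, adjusted p = 0.00427). The labels do not say whether the medium used for release held the MEK inhibitor. Without late G1 library 1, 2 of the 11 immediate early rises and 1 of the 5 ERK feedback rises were still called; without the asynchronous libraries they numbered 14 and 11.

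Other signalling lists held at most 19 tested genes. The share called ran from 14.3% (BMP and ID) to 37.5% (aryl hydrocarbon receptor), against 9.48% of all genes tested. Nodal, the TGF-beta family ligand of the early embryo, rose from 56.0 and 62.8 CPM to 189 and 189 CPM (1.67 ± 0.12, adjusted p = 0.00106), and it was at 188 and 180 CPM at 1 h. Of 16 genes of Nodal and TGF-beta feedback 3 were called higher, Smad7 among them, while Lefty1, a Nodal antagonist, was at 15.5 and 27.4 CPM against 12.4 and 12.2 CPM and did not pass (adjusted p = 0.0734). Of 19 Wnt targets, Znrf3 and Cdx1 rose and Notum, an extracellular Wnt inhibitor, fell from 52.4 and 50.2 CPM to 28.3 and 27.1 CPM; without the asynchronous libraries 7 were called higher and 1 lower. Of 18 LIF and STAT3 targets, Junb, Il6st and Pim1 rose and Pim3 and Mras fell. Of 14 BMP and ID genes, Smad7 and Id3 rose. Of 8 aryl hydrocarbon receptor targets, 3 rose: Cyp1b1, Cyp1a1 and Tiparp, with Cyp1a1, a cytochrome P450, going from 5.56 and 9.28 CPM to 22.76 and 21.02 CPM. When late G1 library 1 was left out, Nodal was the one call left across these 5 lists.

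Pou5f1, Sox2 and Nanog did not pass the test, while 5 other genes of the core and naive pluripotency list were called lower. Pou5f1 (Oct4) was at 2060 and 2121 CPM in mitosis and 1848 and 1888 CPM in late G1 (-0.16 ± 0.16, adjusted p = 0.558). Sox2 was at 244 and 259 CPM against 264 and 243 CPM (0.01 ± 0.14, adjusted p = 0.967), and the groups overlapped. Nanog was at 912 and 996 CPM against 760 and 776 CPM (-0.31 ± 0.11, adjusted p = 0.111), and it was called lower without the asynchronous libraries. Klf4 was at 153 and 193 CPM against 191 and 176 CPM (0.09 ± 0.16, adjusted p = 0.766).

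Of the 30 core and naive pluripotency genes, 5 fell (Klf2, Zfp57, Sall4, Zfp42 and Esrrb), none was called higher and the median was -0.10. Klf2, a naive-state transcription factor, was lower at each later state, from 240 and 227 CPM in mitosis to 131 and 120 CPM at 1 h and 87.6 and 76.0 CPM at 3 h (-1.51 ± 0.13, adjusted p = 0.00208). Zfp57, which protects imprinted methylation, fell from 658 and 576 CPM to 369 and 377 CPM, and Zfp42 (Rex1) from 479 and 398 CPM to 265 and 266 CPM. Esrrb, an orphan nuclear receptor of the naive network, fell from 509 and 651 CPM to 351 and 332 CPM (-0.76 ± 0.18, adjusted p = 0.0354). Myc, also on this list, was at 21.5 and 12.9 CPM in mitosis against 39.99 and 36.2 CPM in late G1 and did not pass (1.15 ± 0.38, adjusted p = 0.099), but passed without the asynchronous libraries. That fit called 2 of the list higher and 11 lower, and without late G1 library 1 Klf2 was the one call.

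Of 20 formative and primed pluripotency genes tested, of 21 listed, 5 rose, among them Nodal, Spry4, Foxd3 and Sox4. Nodal kept the call without late G1 library 1, and the other rises of this list lost it. Without the asynchronous libraries 19 were tested, with 6 called higher and 2 lower, against 15.6% and 14.4% of all genes in that fit. Foxd3, a forkhead factor of the exit from the naive state, was highest at 1 h, with 7.29 and 6.78 CPM in mitosis, 29.8 and 28.0 CPM at 1 h and 18.6 and 15.9 CPM at 3 h (1.29 ± 0.18, adjusted p = 0.00713). Otx2, another formative factor, was at 7.37 and 20.3 CPM in the mitotic libraries and 12.6 and 14.5 CPM in the late G1 libraries, which lie between the mitotic values. In the 26 tested germ layer and extraembryonic genes, of 30 listed, Cdx1 alone was called. Of 16 tested genes of the 2-cell-like state, a rare state that resembles the embryo at genome activation, 8 fell, among them Zscan4c (4.17 and 3.45 CPM to 0.912 and 1.13 CPM), Zscan4d (9.82 and 8.29 CPM to 2.05 and 3.00 CPM) and Tcstv1. The Zscan4 genes are near-identical copies, so the share of reads given to each is uncertain. All 8 lost the call when late G1 library 1 was left out.

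Of the p53 targets, 11 of 31 rose, 1 fell and the median was 0.29. Pmaip1 (Noxa), a BH3-only trigger of apoptosis, rose from 47.2 and 54.6 CPM to 118 and 129 CPM (1.28 ± 0.13, adjusted p = 0.00264). Mdm2, the ubiquitin ligase of p53, rose from 275 and 249 CPM to 508 and 510 CPM (0.96 ± 0.15, adjusted p = 0.00948), with 343 and 351 CPM at 1 h. Plk2, a stress-induced polo-like kinase, rose from 95.7 and 82.5 CPM to 265 and 268 CPM (1.58 ± 0.16, adjusted p = 0.00264). Ddit4l, an inhibitor of mTOR signalling, rose from 13.8 and 15.7 CPM to 46.6 and 48.1 CPM, and its 1 h values of 27.4 and 27.3 CPM lay between. The other called rises were Cdkn1a, Pidd1, Btg2, Eda2r, Tnfrsf10b, Polk and Ccng1, and the fall was that of Plk3 (84.0 and 77.5 CPM to 35.3 and 34.7 CPM). Of 23 apoptosis genes, 5 rose, including Bcl2l11 (Bim, 18.9 and 16.8 CPM to 52.0 and 48.6 CPM) and Casp2, the caspase acted on by the PIDD1 complex (18.25 and 17.96 CPM to 49.7 and 51.8 CPM), with a list median of -0.02. When late G1 library 1 was left out, 3 of the 11 p53 target rises and 1 of the 5 apoptosis rises were called.

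Several clock genes rose, and more stress response genes fell than rose. Of 20 circadian genes, 7 rose (Cry2, Tef, Nr1d1, Bhlhe40, Hlf, Cry1 and Per2) and Npas2 fell, with a median of 0.57. Nr1d1 (Rev-erb alpha), a repressor of Bmal1, rose from 3.62 and 3.63 CPM to 13.8 and 11.7 CPM (1.81 ± 0.18, adjusted p = 0.00254), and Tef, a PAR bZIP factor, from 27.8 and 29.1 CPM to 85.6 and 78.2 CPM (1.52 ± 0.13, adjusted p = 0.00211). Of 30 genes of the integrated stress response and amino acid metabolism, 3 rose and 6 fell. Those that fell included Ddit3 (Chop, 15.0 and 16.6 CPM to 9.08 and 9.66 CPM), Trib3 (45.8 and 61.0 CPM to 27.6 and 28.9 CPM) and Atf4, the central factor of that response (281 and 320 CPM to 214 and 216 CPM). None of 22 heat shock genes was called. Without the asynchronous libraries 4 were called lower and none higher, against 14.4% and 15.6% of all genes in that fit. Without late G1 library 1, 3 of the 7 circadian rises and none of the stress genes were called.

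Tubulin genes were called in both directions, 2 higher and 3 lower of 18 tested, with a median of -0.27, and genes tied to actin were called lower. Tubb5, a beta-tubulin, rose from 535 and 539 CPM to 1048 and 1047 CPM (0.96 ± 0.12, adjusted p = 0.00486), and was higher still at 1 h, at 1476 and 1424 CPM. Tuba3a rose from 36.5 and 37.8 CPM to 66.5 and 71.5 CPM, whereas Tuba1a (220 and 212 CPM to 143 and 146 CPM), Tubb3 and Tubb4a fell. Tuba1b was at 135 and 119 CPM against 142 and 153 CPM and was not called (adjusted p = 0.641). Tubulin genes are close paralogs whose reads may be shared.

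Of 28 actin, SRF and YAP target genes, 8 fell (Actg1, Cnn2, Pdlim7, Myl9, Tpm2, Tpm1, Ajuba and Tpm4), none was called higher and the median was -0.31. Actg1, cytoplasmic gamma-actin, fell from 516 and 439 CPM to 260 and 261 CPM (-0.87 ± 0.12, adjusted p = 0.00663), and Pdlim7, an actin-associated adaptor, from 143 and 118 CPM to 69.7 and 69.3 CPM. Actb was at 5534 and 6016 CPM against 3742 and 3756 CPM and did not pass (-0.62 ± 0.22, adjusted p = 0.117). Of 34 integrin and adhesion genes, Lama1, Itga5 and Itgb5 fell and Itgav rose. These calls are 11.8% of that list, near the 9.48% of all genes tested. None of the tubulin, actin or integrin calls remained without late G1 library 1 or late G1 library 2, and none of the 8 actin falls without mitotic library 1.

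Across lists for biosynthesis, transcription and chromatin, the share called ran from 4.17% (acetylation) to 16.1% (cholesterol and fatty acid synthesis). It was 9.48% over all genes tested. Of 31 cholesterol and fatty acid genes, 5 rose (Scd1, Hsd17b7, Scd2, Insig1 and Idi1), with Scd1, a fatty acid desaturase, at 84.997 and 88.63 CPM against 147 and 150 CPM (0.77 ± 0.13, adjusted p = 0.0113). Of 87 cytosolic ribosomal protein genes, 5 were called higher and 1 lower, with a median of -0.16; these have many processed copies, which can take their reads. Of 42 ribosome biogenesis genes, Utp15 and Dkc1 rose and Ubtf and Nop2 fell. In the list of 30 genes of the transcription machinery, Polr2b, the second largest subunit of RNA polymerase II, rose from 233 and 218 CPM to 314 and 319 CPM, Taf1 rose, and Cdk7, the kinase of TFIIH, fell from 115 and 108 CPM to 80.0 and 85.3 CPM. The calls in the other chromatin and RNA lists were for acetylation (Hdac4 lower, of 24), DNA methylation (Mbd4 higher and Zfp57 lower, of 17), Polycomb (Cbx8 and Phc3 higher, of 27), SR factors and CLK kinases (Srsf5 higher, Clk2 and Clk3 lower, of 22) and for glycolysis and hypoxia (Pdk1, Ddit4 and Egln3 higher, of 35). All calls in this paragraph were lost without late G1 library 1.

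**Figure D3:**
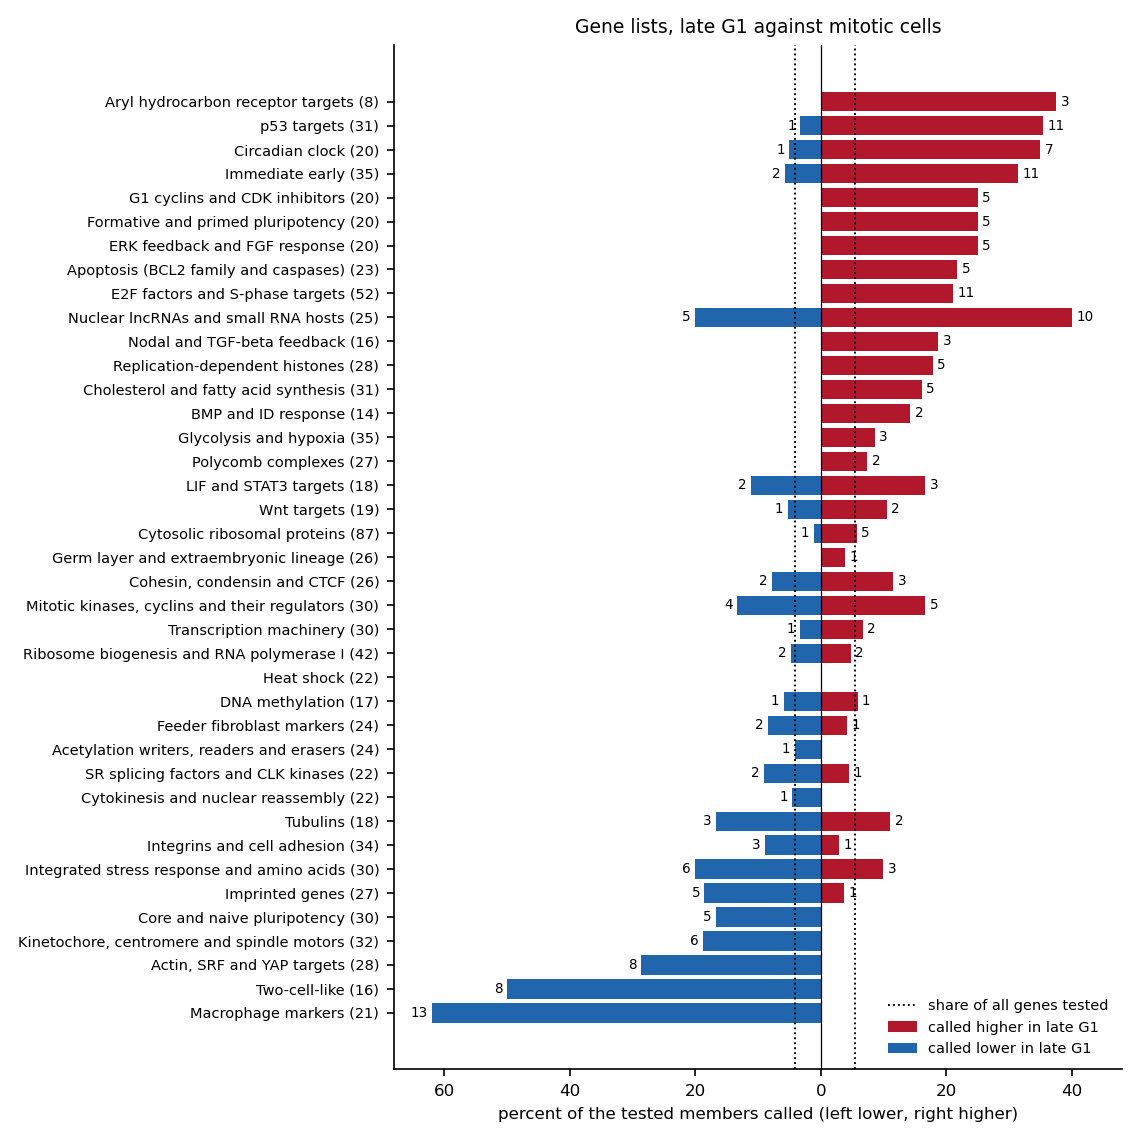
Percent of the tested members of each of 39 gene lists called higher (right, red) or lower (left, blue) in late G1 than in mitotic cells, with the number called at the end of each bar and the number tested after each name. Dotted lines mark the shares over all genes tested, 5.43% higher and 4.04% lower.

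Nuclear noncoding RNAs and hosts of small RNAs moved in both directions. Of 25 tested, 10 rose and 5 fell, with a median of 0.43. The rises were Mir17hg and 9 snoRNA host genes or neighbours (Snhg1, Snhg12, Snhg6, Snhg15, Snhg3, Snhg5, Snhg17, Epb41l4aos and Gas5), and the falls were Neat1, Meg3, Firre, H19 and Mirg. Snhg12 rose from 20.3 and 25.6 CPM to 76.7 and 79.9 CPM, and Gas5, a growth-arrest transcript that holds many snoRNAs, from 166 and 228 CPM to 327 and 341 CPM. Malat1, the nuclear speckle RNA, was at 295 and 295 CPM against 126 and 123 CPM and did not pass (-1.24 ± 0.35, adjusted p = 0.0634). Imprinted genes gave 5 falls, Meg3, Nespas, Rtl1, H19 and Mirg, and 1 rise, Peg10, of 27 tested. Without late G1 library 1, 3 of the 10 rises and 2 of the 5 falls of the noncoding RNAs were called, and 1 of the 5 imprinted falls.

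Mir17hg is the primary transcript of the miR-17-92 cluster, whose miRNAs are known to act on E2F factors, p21 and Bim. It was at 6.83 and 8.46 CPM in mitosis, 42.0 and 42.0 CPM at 1 h and 34.5 and 35.2 CPM at 3 h (2.19 ± 0.18, adjusted p = 0.00208). Of the mature miRNAs it encodes, 6 are shown, and these fall into 4 seed groups. The sequences are from RefSeq on GRCm38.p6 (plus strand of chromosome 14), with the seed at bases 2 to 8 in capitals.
miR-17-5p: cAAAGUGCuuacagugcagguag
miR-20a-5p: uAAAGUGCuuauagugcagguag
miR-18a-5p: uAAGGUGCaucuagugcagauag
miR-19a-3p: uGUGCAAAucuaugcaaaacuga
miR-19b-3p: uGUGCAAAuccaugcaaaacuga
miR-92a-3p: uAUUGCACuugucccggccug
The first pair share a seed and so do miR-19a and miR-19b. These libraries count the host transcript and not the mature miRNAs.

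Genes annotated as small nucleolar RNAs (snoRNAs), which guide chemical modification of ribosomal RNA, were called higher in 36 of the 87 cases tested. In mammals most are cut from introns of host genes, and mature snoRNAs have no poly(A) tail. Sequences of 3 that rose show the class: capitals mark the C box (TGATGA) and D box (CTGA) of the box C/D kind, and the ACA triplet near the end of the H/ACA kind. They are the genes as annotated by GENCODE on mm10, Snord49a (chr11:62603450-62603521, plus strand), Snord83b (chr15:80078498-80078591, minus strand) and Snora41 (chr1:63179004-63179135, plus strand).
Snord49a: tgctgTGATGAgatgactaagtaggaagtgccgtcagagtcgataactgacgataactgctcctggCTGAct
Snord83b: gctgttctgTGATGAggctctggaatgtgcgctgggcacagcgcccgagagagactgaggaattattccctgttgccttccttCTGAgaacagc
Snora41: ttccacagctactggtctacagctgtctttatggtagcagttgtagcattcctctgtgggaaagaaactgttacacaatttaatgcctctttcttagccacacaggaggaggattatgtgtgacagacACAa
Snord49a was at 0.337 and 0.345 CPM in mitosis and 3.19 and 3.47 CPM in late G1 (log2 difference 3.27, adjusted p = 0.00211). Snora41, which lies within Eef1b2, rose from 0.464 and 0.345 CPM to 4.06 and 4.03 CPM (adjusted p = 0.00226), while Eef1b2 itself, a translation elongation factor gene, was at 1214 and 1239 CPM against 968 and 1028 CPM (-0.30 ± 0.14, adjusted p = 0.219). Snord83b rose from 0.674 and 0.216 CPM to 5.34 and 5.77 CPM (adjusted p = 0.00365), while its host Rpl3, a ribosomal protein gene, was at 309 and 325 CPM against 280 and 315 CPM (adjusted p = 0.75).

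Of 87 snoRNA genes tested, 36 rose (41.4%) and none was called lower, against 5.43% and 4.04% of all genes. Summed over all 1507 snoRNA genes in the table, tested or not, the libraries held 1175 and 1022 reads in mitosis, 2419 and 3162 at 1 h, and 2518 and 2610 at 3 h. As a share of the library total, unscaled by TMM, these are 48.004 and 43.5 CPM in mitosis and 116 and 123 CPM in late G1, a ratio of 2.61. Of the 36, 35 lie inside a host gene on the same strand, and some share a host. The host was called higher for 4 of these 35 snoRNA genes, lower for none and not called for 31. Over the 55 distinct hosts of all 73 tested snoRNA genes that have one, the median log2 change was 0.00. A gene of such low level passes the filter only if it is well counted in some group, so the share and the levels of the genes tested are partly set by the filter. Without any filter 349 snoRNA genes had reads, 47 were called higher and 2 lower, and their median was 0.09. With late G1 library 1, late G1 library 2 or mitotic library 1 left out, fewer snoRNA genes were called, as were fewer of all genes. The median log2 change of the 96 snoRNA genes tested was then 1.95, 1.58 and 1.87, in that order. Reads inside an intron of an unspliced host transcript and reads of the snoRNA cannot be told apart in a count table.

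**Figure D4:**
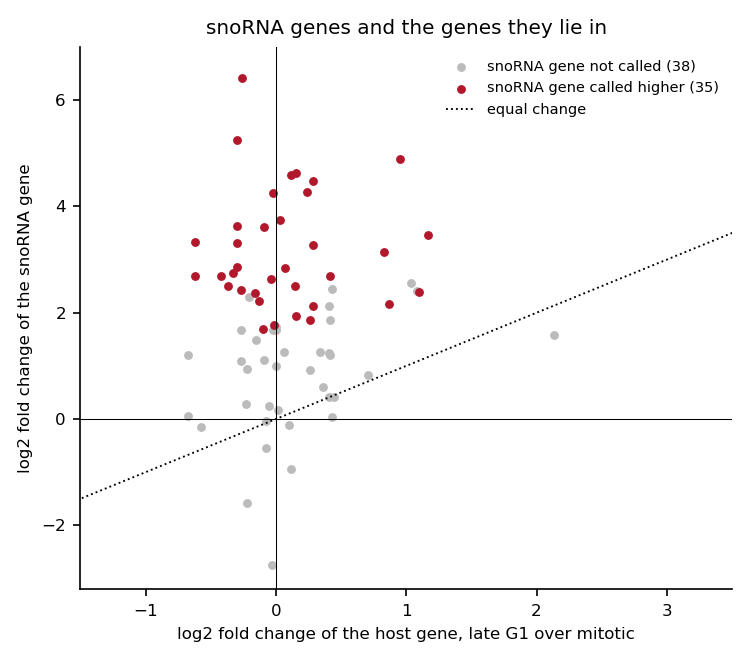
Log2 fold change (late G1 over mitotic) of 73 snoRNA genes on the vertical axis against that of the host gene each lies in on the horizontal axis. Red points are the 35 snoRNA genes called higher, and the dotted line marks equal change; the genes shown are those that passed the filter on low counts, which favours genes high in some group.

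Long genes had a larger share of falls than short ones. Among protein-coding genes with a mean log2 CPM of at least 2, 69 of the 400 that span over 200 kb fell (17.3%) and 4 rose (1.00%), with a median log2 change of -0.34. Of the 9364 genes that span up to 100 kb, 3.88% fell and 5.88% rose, with a median of -0.03. Of the 908 genes of 100 to 200 kb, 7.38% fell and 3.30% rose, with a median of -0.05. Over 100 kb, the longest bin planned, 10.4% of 1308 genes fell and 2.60% rose, with a median of -0.13. The edge at 200 kb was added later. Medians did not fall steadily with span, since the 1059 genes under 5 kb had a median of -0.16. The median of the longest genes was -0.35 against mitotic library 1 and -0.28 against mitotic library 2, and it was -0.14 for early G1 over mitosis and -0.21 for late over early G1. Without the asynchronous libraries 166 of the 400 (41.5%) were called lower and 20 higher, against 16.9% lower and 17.3% higher for genes up to 100 kb in that fit. Without late G1 library 1 none was called, and the median was -0.33. RNA half-life, intron content and library quality were not measured here, and their part in this difference was not tested.

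Long genes that fell serve varied functions. Gli2, a transcription factor of Hedgehog signalling (chr1:118834132-119053619, minus strand), fell from 60.6 and 66.4 CPM to 37.3 and 44.3 CPM at 1 h and 25.7 and 21.3 CPM at 3 h (-1.44 ± 0.19, adjusted p = 0.00663). Arid1b, a subunit of the BAF chromatin remodeller (chr17:4994332-5347656, plus strand), fell from 32.0 and 35.5 CPM to 13.7 and 14.6 CPM (-1.25 ± 0.18, adjusted p = 0.00767). Hdac4, a class IIa histone deacetylase, fell from 32.9 and 34.7 CPM to 16.0 and 14.1 CPM (-1.17 ± 0.14, adjusted p = 0.00415). In all 3 the early G1 values lay between the mitotic and the late G1 values. Fndc3b, Agap1 and Cdkal1 showed the same order, with late over mitotic log2 changes of -1.498, -1.35 and -1.24. Gli2, Arid1b, Fndc3b, Agap1 and Cdkal1 were chosen after their values were seen, as examples of long genes that fell.

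**Figure D5:**
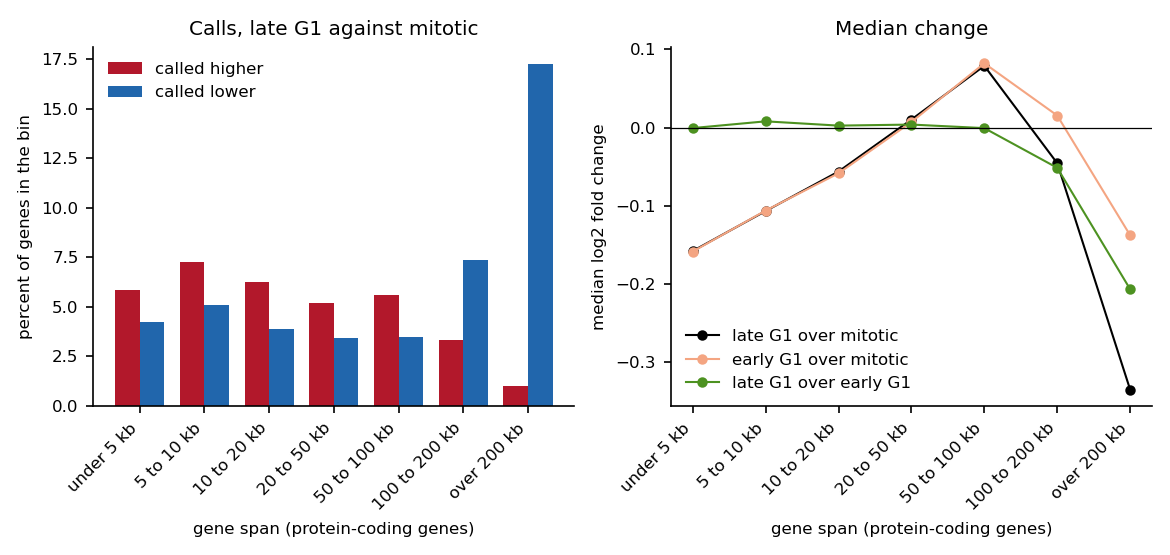
Protein-coding genes with a mean log2 CPM of at least 2, binned by genomic span: percent called higher (red) and lower (blue) in late G1 against mitotic cells on the left, and median log2 fold changes between the 3 states on the right. The bin over 200 kb has the highest share of falls, 17.3%, and the lowest median, -0.34.

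Defining macrophage markers were present in both mitotic libraries and at or near 0 after release. Of 21 tested markers, of 25 listed, 13 fell and none was called higher, with a median of -2.56. C1qb, a complement subunit, went from 7.838 and 7.598 CPM to 0.0456 and 0.235 CPM, and C1qc from 5.06 and 5.05 CPM to 0 and 0.0938 CPM. In late G1 library 1, 7 of the 21 had no read (Lyz2, C1qc, Tyrobp, C1qa, Adgre1, Fcgr1 and Msr1), and in late G1 library 2 only Lyz2 had none. The summed level of the list was 354 and 377 CPM in mitosis and 286 and 278 CPM in late G1, and Cd68, the lysosomal member, was at 54.91 and 39.98 CPM against 43.7 and 44.9 CPM. Of 24 feeder fibroblast markers, Pdgfra was called higher and Col3a1 and Postn lower, and they summed to 996 and 961 CPM against 868 and 833 CPM, with 2704 and 2775 CPM in the asynchronous libraries. The macrophage falls accompany the falls of 2-cell-like, actin and stress response genes above, and their part in those was not tested. Leaving out late G1 library 1 kept 3 of the 13 calls.

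The number of calls between early and late G1 also varied with the libraries in the fit. Late against early G1 gave no call among 19101 genes by edgeR (724 genes, 3.79%, had an unadjusted p under 0.05) and 26 by DESeq2. Without the asynchronous libraries edgeR called 19 genes (0.104%), 5 higher (0.0273%) and 14 lower (0.0766%), and it called 1598 with mitotic library 1 left out as well, 1578 with mitotic library 2 left out in its place, and 1518 without replicate 1 of both mitotic and asynchronous cells. Early G1 against mitosis gave 885 calls (4.63%), with 613 higher (3.21%) and 272 lower (1.42%), of which 439 were at least 2-fold higher (2.30%) and 166 at least 2-fold lower (0.869%). Without the asynchronous libraries it gave 4435 (24.3%), 13.2% higher and 11.1% lower. It gave 42 without early G1 library 2, and 54 without either early G1 library 1 or mitotic library 1. Both contrasts with mitosis share the 2 mitotic libraries, so their values are given side by side without a measure of likeness.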

How the data were processed

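RNA from 8 libraries, 2 each of asynchronous, mitotic, early G1 and late G1 cells, was sequenced as single 50-base reads from a stranded mRNA kit, per the labels' protocols. The RNA extraction text names asynchronous cells alone. The authors deposited raw read counts per gene, and the submitters' processing notes name TopHat2, SAMtools, HTSeq and mm10. For versions, roles, strand setting and annotation: not given in the sources used here. Of 54838 gene IDs, 54809 (99.9%) matched GENCODE M21; 20402 genes had 0 counts in every library, and mitochondrial genes had 0 counts.

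Counts were fitted over all 8 libraries with edgeR 4.0.16 (R 4.3.3): filterByExpr with a minimum count of 10 kept 19101 genes, TMM scaling, robust quasi-likelihood with 4 residual degrees of freedom, and Benjamini-Hochberg adjustment with a threshold of 0.05. DESeq2 1.42.0, other scalings and filters, other sets of libraries and a replicate block were alternatives. On simulated data for late G1 against mitotic cells (18540 genes), the fit called 47 of 100 genes changed 2-fold and 94 of 100 changed 4-fold, with 7 false calls. These counts describe the simulated data alone. The real groups differed widely in their spread between replicates, as given in the Results, and the number called varied with the libraries used. The shares of missed and false calls in the real fit are thus not known from this simulation. Promoters and miRNAs are from RefSeq on GRCm38.p6.

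Genes were named by rule: the 12 genes that rose most and the 12 that fell most, from those called with a mean log2 CPM of at least 2 and groups that do not overlap, the 3 with the smallest p per list and direction, and fixed regulators (143 genes, 133 called). Further members are named to complete a count. Some genes the rule names are not reported here. The comparison and the gene lists were chosen with earlier results of these data known. Replicates come from 2 clones, so p-values measure the spread between these libraries.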

Additional observations from a re-analysis of the deposited data

How the results depend on the processing

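With 2 libraries a group and 4 residual degrees of freedom, the number of calls depended on the libraries in the fit, and the cause was not tested. Among the called genes that an alternative also tested (1699 of 1810 with at least 1 CPM in 2 libraries, the fewest), none changed direction, and all 1802 calls that were tested without the asynchronous libraries kept the call there. RLE scaling gave 1834 calls for late G1 against mitosis, and total counts without TMM gave 1587 (995 higher, 592 lower), with the median of all genes moved from -0.01 to 0.03. DESeq2 gave 2235 (1240 higher, 995 lower).

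Calls for late G1 against mitosis (higher, lower), then for early G1 against mitosis and late against early G1, were 3289 (1886, 1403), 2362 and 58 with no filter on low counts; 5480 (2847, 2633), 4435 and 19 without the asynchronous group; 6593 (3488, 3105), 5882 and 16 with a term that sets replicate 1 apart in both mitotic and asynchronous cells; and 8525 (4290, 4235), 7918 and 1518 without replicate 1 of both. Mitotic and late G1 libraries alone gave 3959 (2275, 1684). DESeq2 gave 1412 and 26 for the latter 2 contrasts. Alternatives chosen after seeing the data gave 4678 (2427, 2251), 3837 and 129 by DESeq2 without the asynchronous group, 8591 (4306, 4285), 7976 and 1598 without that group and mitotic library 1, and 8237 (3990, 4247), 7524 and 1578 without it and mitotic library 2.

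Leaving out 1 library at a time gave 73 to 5546 calls for late G1 against mitosis, 57 to 2878 higher and 16 to 2668 lower, 42 to 4518 for early G1 against mitosis, and 0 to 25 for late against early G1. With 1 library left in a group, that library is assumed to vary like the other groups.

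Klf4 and Sox2, neither of them called, turned to -0.0748 and -0.0347 without replicate 1 of those groups, and to -0.0784 and -0.0383 without the asynchronous group and mitotic library 1. Leaving out 1 library at a time, Klf4 ranged from -0.0754 (without mitotic library 1) to 0.262, and Sox2 from -0.0488 (without late G1 library 1; -0.0352 without mitotic library 1) to 0.0710.

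With the replicate number as a block, 1744 genes were called (1025 higher, 719 lower), and 9 of the 133 named calls were lost: Tpx2, Cdca5, Tuba1a, Gdf15, Npas2, Dkc1, Cdk7, Postn and Id3. Same-numbered mitotic and late G1 libraries deviated together with r = 0.06 over 11706 genes, mitotic and early G1 libraries with r = -0.14, and early and late G1 libraries with r = -0.04. The asynchronous libraries gave r = 0.63 with the mitotic, -0.36 with the early G1 and 0.05 with the late G1 libraries. Since not every pair was over 0.1, and the labels tie no number to a clone, the numbers are treated as names that do not pair the samples.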

Other observations

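Zinc finger genes were called higher by a larger share than all genes tested. Of 366 protein-coding genes with a Zfp symbol, 39 were called higher (10.7%) and 17 lower (4.64%), with a median log2 change of 0.22. The shares over all genes tested were 5.43% and 4.04%. Without the asynchronous libraries 98 of the 366 were called higher (26.8%) and 35 lower (9.56%), against 15.6% and 14.4% of all genes in that fit. Of 40 Zbtb genes, which join a zinc finger to a BTB domain, 8 were called higher and 1 lower. Zfp715 rose from 5.48 and 4.36 CPM to 22.8 and 23.6 CPM, whereas Zfp936 fell from 96.4 and 75.2 CPM to 40.1 and 44.9 CPM.

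Several noncoding classes also held more rises than falls. Over all genes tested, 5.43% were called higher and 4.04% lower. Of 517 antisense genes, 64 were called higher (12.4%) and 9 lower (1.74%), with a median of 0.71. Of 632 lincRNA genes, 65 were higher (10.3%) and 9 lower (1.42%), with a median of 0.36. Processed transcripts gave 34 higher (13.5%) and 8 lower (3.17%) of 252, and processed pseudogenes 24 higher (1.18%) and 37 lower (1.81%) of 2039. Summed over all antisense genes in the table, late G1 libraries held 1.41 times the mitotic share of reads, and for lincRNA genes the ratio was 0.897. Most of these genes had low counts, and antisense reads depend on the strand setting of the counting. A gene of low level passes the filter only if it is well counted in some group. The shares and medians of these classes are therefore partly set by the filter. Counts for these classes and for the zinc finger families were not taken with single libraries left out.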
